A study of Mus musculus with 8 samples.

Results

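The hepcidin and iron handling genes described here are Hamp, Hamp2, Tmprss6, Hfe, Tfr2, Tfrc, Trf, Cp, Fth1 and Ftl1. They were taken by symbol from the deposited tables, and all 10 were among the 17276 genes on file and among the 11747 with enough counts to be tested. The samples were hepatocytes of male wild-type C57BL/6N mice aged 6 to 8 weeks, with 4 libraries of cells kept static and 4 of cells put under shear stress, the drag of flowing liquid along a cell (called stressed libraries here). Strength and duration of the stress are not stated in the labels. Nor is it stated that libraries of a group stem from separate animals or cultures, so p-values reflect the variation among these libraries alone, and that variation may be technical. The set was chosen by measured values, the counts of its genes under shear stress against static, so this contrast is given for them as a description with no test.

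Hepcidin is a peptide hormone of the liver that binds the iron exporter ferroportin on other cells, has it degraded and so lowers plasma iron. In hepatocytes its gene is read through 2 main signals. A bone morphogenetic protein (BMP) signal, relayed by receptors, the coreceptor hemojuvelin and SMAD proteins, reports iron stores, and an interleukin-6 (IL-6) signal relayed by STAT3 reports inflammation. HFE and transferrin receptor TFR2 sense iron-loaded transferrin and raise hepcidin, whereas the protease TMPRSS6 cuts hemojuvelin and lowers it. Ferritin stores iron inside the cell, transferrin and ceruloplasmin are secreted to carry and oxidise it in plasma, and transferrin receptor TFRC takes it up.

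Mouse has a pair of hepcidin genes side by side on chromosome 7. Hamp (Gene ID 84506; GRCm38, 30942368 to 30944029) encodes the iron-regulating hormone, and Hamp2 (Gene ID 66438; 30922372 to 30924181) a close relative. Their upstream sequences are shown for comparison, and any part of them in the levels of these genes was not tested. They are the 250 bases before the annotated start of each gene on the minus strand, from RefSeq (GRCm38.p6), 5′ to 3′, with capitals marking matches to GGCGCC (the core of a BMP-responsive element), TTCTTGGAA (a STAT site) and TGAGTCA (an AP-1 site).
Hamp, chr7:30944030-30944279: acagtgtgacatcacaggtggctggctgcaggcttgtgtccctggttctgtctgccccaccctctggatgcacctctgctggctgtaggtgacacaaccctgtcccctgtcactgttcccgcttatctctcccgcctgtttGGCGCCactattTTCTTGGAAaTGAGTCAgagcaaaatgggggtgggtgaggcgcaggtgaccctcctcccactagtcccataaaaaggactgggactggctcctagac
Hamp2, chr7:30924182-30924431: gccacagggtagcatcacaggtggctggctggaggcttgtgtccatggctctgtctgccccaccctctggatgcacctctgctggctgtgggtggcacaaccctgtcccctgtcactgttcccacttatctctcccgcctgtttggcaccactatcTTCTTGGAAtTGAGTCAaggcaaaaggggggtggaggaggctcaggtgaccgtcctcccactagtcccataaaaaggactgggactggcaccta
In an alignment of these windows 227 positions were identical, 20 differed and 6 were gaps, an identity of 91.9% over the aligned bases. Both windows held TTCTTGGAA and TGAGTCA, and these matches did not overlap. Only exact matches were sought. GGCGCC was found in the Hamp window, from 109 to 104 bases before the start, and not in the Hamp2 window, which reads ggcacc at the matching place. Searched on both strands, GGCGCC occurred in 9.59% of 32851 windows of the same length before annotated starts, TTCTTGGAA in 0.365% and TGAGTCA in 4.46%. These matches describe letters in 250 bases and were not tested for binding.

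**Figure D1:**
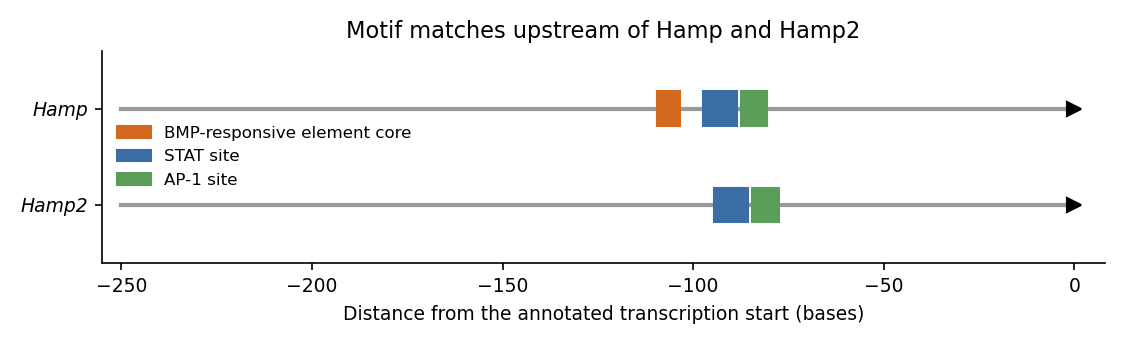
Motif matches in the 250 bases upstream of Hamp and Hamp2, with distance in bases from the annotated transcription start on the x axis and one line per gene (arrowhead: start). The STAT and AP-1 matches stand at nearly the same distance in both genes. An exact match to the BMP-responsive element core, from 109 to 104 bases before the start, is found for Hamp alone of the 2 genes.

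Hamp was far less abundant in static cells than under shear stress, where it was among the 45 most abundant transcripts. In normalised CPM (estimated counts per library size, scaled by TMM factors), Hamp stood at 11.1, 4.83, 13.6 and 6.96 in static replicates 1 to 4. In the stressed replicates it stood at 538, 323, 509.9 and 299. The groups were far apart, the lowest stressed library lying above the highest static library. The mean was 9.13 ± 3.98 CPM in static and 417 ± 124 CPM in stressed libraries (SD, n = 4), a log2 fold change of 5.52 ± 0.38 (standard error), or 45.9-fold. Within libraries of the same replicate number, shear stress over static ratios were 48.5, 66.9, 37.4 and 43.0. By TPM, which is scaled for transcript length and allows levels of different genes to be compared, Hamp ranked between 997 and 2298 among all genes in static libraries and between 21 and 45 in stressed libraries. It made up 0.442% ± 0.124 of all TPM under shear stress and 0.00843% ± 0.00333 in static culture. This was the 8th highest log2 fold change of all 11747 tested genes.

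Hamp2 did not share this difference. It stood at 4.37, 3.08, 39.0 and 0.66 CPM in static replicates 1 to 4 and at 5.73, 2.97, 24.3 and 0.906 CPM in the stressed replicates. Its level followed the replicate number and not the group, with replicate 3 highest and replicate 4 lowest in both. The log2 fold change was -0.46 ± 1.22, and it was 1.64 without static replicate 3 and -1.86 without stressed replicate 3, so its sign rested on single libraries. Shear stress over static ratios within numbers were 1.31, 0.965, 0.622 and 1.37. The means of the replicate numbers spanned 5.11 on the log2 CPM scale for Hamp2, the 6th widest span of 11747 tested genes, against 1.07 for Hamp and a median of 0.41 over all tested genes. The labels do not say what a replicate number stands for, but libraries of the same number resembled each other in expression over many genes.

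**Figure D2:**
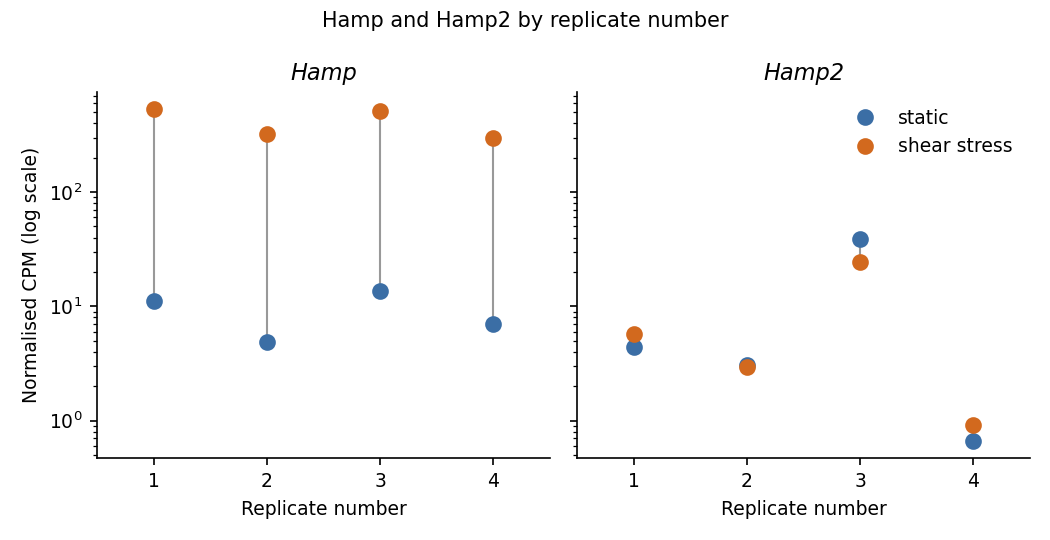
Normalised CPM (log scale) of Hamp and Hamp2 against replicate number, with 1 point per library and a grey line joining the static and stressed libraries of a number. Hamp is between 37.4 and 66.9 times higher under shear stress at each number, whereas the points of Hamp2 lie together within a number and range from 0.66 to 39.0 CPM between numbers.

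The ratio of Hamp to Hamp2 TPM in a library shows both patterns at once. It was 3.10, 1.90, 0.422 and 12.8 in static replicates 1 to 4, and Hamp2 was thus the more abundant hepcidin transcript in static replicate 3. Under shear stress it was 114, 130, 25.3 and 400, so that Hamp was the more abundant in all 4. How reads were divided between these relatives bears on this ratio. The estimated counts of both genes were whole numbers in all 8 libraries. Of the 100-base windows of the annotated Hamp transcript (GENCODE M21), 0 of 311 were found in a Hamp2 transcript, and 60 of 361 were shared at 50 bases. The read length is not given in the sources used here.

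Of the 10 genes, 5 passed the adjusted p threshold of 0.05 in the fit across all genes, where 48.6% of tested genes did. That was 1 higher gene, Hamp, against a background of 24.9%, and 4 lower genes (Tmprss6, Cp, Tfr2 and Ftl1) against 23.7%. The groups did not overlap for 4 of the 10, 1 higher (background 23.7%) and 3 lower (background 21.5%), against 45.3% of all tested genes in either direction. Because the genes were chosen with this contrast in view, nothing is read from these counts. With the replicate number as a block, 1 was higher (background 30.1%) and 6 were lower (background 31.0%), Hfe and Trf being added. With library totals, 1 was higher (background 35.4%) and 2 were lower (background 13.1%), Tmprss6 and Cp. Library scaling sets the direction of small differences, since library totals in place of TMM factors moved the median log2 fold change of all tested genes by 0.22 and upper quartile factors moved it by 0.14. With library totals the log2 fold changes of Fth1 (0.05) and Trf (0.03) turned positive, and those of Hfe (-0.04) and Ftl1 (-0.09) came close to 0.

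The protease gene of the set had a lower mean under shear stress, where 7 of 10 hepatocyte markers were also lower (23.7% of all tested genes were). Any link between its level and that of Hamp was not tested. Tmprss6 (chromosome 15, 78439667 to 78468648), the protease that cuts hemojuvelin, stood at 234, 171, 265 and 248 CPM in static replicates 1 to 4 and at 146, 118, 163 and 145 CPM under shear stress. Each stressed library was below each static library. The mean was 229 ± 41.1 CPM in static and 143 ± 18.8 CPM in stressed libraries, a log2 fold change of -0.68 ± 0.15, and ratios within numbers were 0.624, 0.691, 0.617 and 0.586. It was -0.45 with library totals.

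Both genes of transferrin iron sensing had lower means under shear stress. Tfr2 (chromosome 5, 137569822 to 137588081) stood at 236, 158, 219.7 and 226 CPM in static replicates 1 to 4 and at 170.2, 129.9, 160.4 and 154 CPM under shear stress. The groups overlapped, because static replicate 2 was below stressed replicates 1 and 3, yet the stressed library was the lower one at each of the 4 numbers. The log2 fold change of Tfr2 was -0.45 ± 0.14, and -0.23 with library totals. Hfe (chromosome 13, 23702034 to 23710854) was between 32.5 and 40.7 CPM in static and between 27.4 and 38.1 CPM in stressed libraries. The log2 fold change of Hfe was -0.26 ± 0.13, and -0.04 with library totals. Its counts were whole in only 2 of 8 libraries, so some of its reads were divided with other genes.

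Tfrc (chromosome 16, 32608896 to 32632794), the receptor that takes up transferrin and whose messenger RNA is stabilised when cell iron is low, did not separate the groups. It stood at 44.9, 64.2, 49.9 and 46.9 CPM in static replicates 1 to 4 and at 44.7, 49.0, 62.8 and 55.7 CPM under shear stress. Stressed libraries were lower at numbers 1 and 2 and higher at numbers 3 and 4. The log2 fold change of Tfrc was 0.04 ± 0.15, and 0.26 with library totals. Tfrc TPM over Tfr2 TPM was 0.160 ± 0.0618 in static and 0.216 ± 0.0373 in stressed libraries, which overlapped.

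Both secreted iron proteins had lower mean CPM under shear stress, and only the values of Cp were without overlap. Cp (chromosome 3, 19956933 to 20009750), which encodes the ferroxidase ceruloplasmin, stood at 2866, 2416, 2532 and 2215 CPM in static replicates 1 to 4. Under shear stress it stood at 1849, 1298, 1772 and 1446 CPM, below every static library. Its log2 fold change was -0.66 ± 0.14, and -0.44 with library totals. Trf (chromosome 9, 103208876 to 103230286), the transferrin gene, was between 8672 and 12065 CPM in static and between 8605 and 10052 CPM in stressed libraries. These ranges overlapped, and the log2 fold change of Trf was -0.20 ± 0.12, and 0.03 with library totals. Mean Trf TPM was 6305 in static and 6432 in stressed libraries, so its direction depended on the scaling.

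The ferritin subunit genes were the most abundant of the set. The means of the replicate numbers spanned 0.84 on the log2 CPM scale for Fth1 and 0.21 for Ftl1. Fth1 (chromosome 19, 9980600 to 9985111), the heavy chain with ferroxidase activity, stood at 4630.4, 9083, 9136 and 7681 CPM in static replicates 1 to 4 and at 4951, 8098, 7117 and 6815 CPM under shear stress. Replicate 1 was lowest in both groups, and the log2 fold change of Fth1 was -0.18 ± 0.23. Ftl1 (chromosome 7, 45457944 to 45459886), the light chain, was between 6449 and 8680.5 CPM in static and between 5482 and 5989 CPM in stressed libraries. Its groups did not overlap, with a log2 fold change of -0.32 ± 0.12. That order depended on the scaling, since Ftl1 TPM was between 11073 and 14908 in static and between 10974 and 13393 in stressed libraries. Ftl1 counts were whole in only 1 of 8 libraries, so reads were divided with other sequences. The ratio of Fth1 to Ftl1 TPM was 1.10 ± 0.276 in static and 1.22 ± 0.229 in stressed libraries, lowest in replicate 1 of each group (0.749 and 0.884).

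By mean TPM the order in static libraries was Fth1 (14245 ± 4359.8), Ftl1 (12851 ± 1582), Trf (6305 ± 1004), Cp (838 ± 84.4), Tmprss6 (96.1 ± 12.9), Tfr2 (88.8 ± 10.3), Hamp2 (87.3 ± 132), Hamp (84.3 ± 33.3), Hfe (16.1 ± 0.799) and Tfrc (13.7 ± 3.28). Neighbours whose libraries overlapped were Fth1 and Ftl1, the run from Tmprss6 to Hamp, and Hfe and Tfrc. Under shear stress Hamp moved up to the fourth place, at 4422 ± 1244 TPM, below every Trf value and above every Cp value. The other places kept their neighbours, except that Tmprss6 (70.7 ± 8.31) came after Tfr2 (76.3 ± 5.25) and Hamp2 (75.6 ± 97.2), and Tfrc (16.5 ± 2.79) before Hfe (15.8 ± 1.54), and in each of these pairs the libraries overlapped. Together the 10 genes made up between 2.56% and 3.97% of all TPM in static and between 3.34% and 4.34% in stressed libraries.

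**Figure D3:**
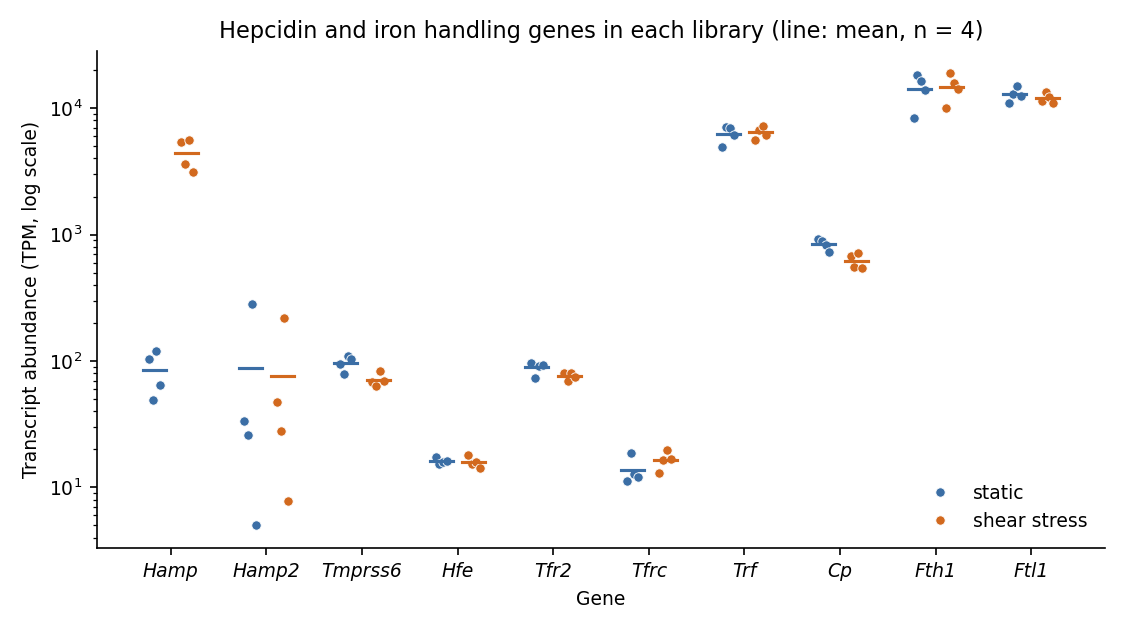
TPM (log scale) of the 10 genes, with 1 point per library, static in blue and shear stress in orange, and a line at the mean of 4. Hamp moves from a mean of 84.3 to 4422 TPM and the other 9 genes have ratios of mean TPM between 0.735 (Tmprss6) and 1.20 (Tfrc).

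Library totals lay between 15067056 and 17935566 estimated counts in both groups, and 3 counts, the least that is read as a level here, correspond to between 0.157 and 0.227 CPM. All 10 hepatocyte markers were tested, with Alb at 62211 ± 8131 CPM in static and 41827 ± 7151 CPM in stressed libraries. Of these markers 7 fell and none rose, where 23.7% of all tested genes were lower and 24.9% higher. Hnf4a, Asgr1 and Cyp2e1 were not called. The marker calls are given with TMM factors only. The summed level of the markers was between 73705 and 93995 CPM in static and between 49644 and 66385 CPM in stressed libraries. Of the hepcidin and iron handling genes, all but Hamp and Tfrc also had a lower mean CPM under shear stress. Any part of the marker levels in those differences was not tested. In whole cultures fewer cells of a type and less RNA per cell cannot be told apart. Of 11 Kupffer cell and macrophage markers on file, 10 (Adgre1, Clec4f, Cd163, Marco, Timd4, C1qa, C1qb, Csf1r, Cd5l and Lyz2) were under 1 CPM in every library. The summed list, nearly all Cd68, was between 22.7 and 56.4 CPM in static and between 17 and 57.2 CPM in stressed libraries. The 10 liver endothelial markers summed to between 18.8 and 34.5 CPM in static and between 26.8 and 59.5 CPM under shear stress, where Stab1 and Flt4 rose and Pecam1 fell. Stellate cell and fibroblast markers summed to at most 12.4 CPM in any library, and leukocyte and red cell markers to at most 40.0 CPM. The 5 cholangiocyte markers on file summed to between 146 and 1332 CPM in static and between 239 and 1735 CPM in stressed libraries, most of it Spp1, while Krt19 was under 1 CPM in every library.

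The genes that act on hepcidin and iron outside the set were taken from lists written by function. Of 131 such genes 129 were on file and 117 were tested, 15 rose and 27 fell. That is 35.9% called, against 48.6% of all tested genes, and 75 were not called. Of all tested genes 24.9% were higher and 23.7% lower, which is the background of each list below. With the replicate number as a block 70 of the 117 were called, 24 higher and 46 lower. This is near the 61.1% of all tested genes called with the block (30.1% higher, 31.0% lower). The smaller share of the lists thus depended on leaving out the block. With library totals 26 rose and 16 fell, where 35.4% of all tested genes were higher and 13.1% lower. Adjusted p-values below are from the fit without the block unless stated. The median log2 fold change of the 117 genes was -0.15, against -0.01 for all tested genes.

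Among BMP ligands, receptors and SMADs, 3 of 20 tested genes rose and 2 fell, with a median log2 fold change of 0.09. Acvr1, a BMP type I receptor, stood at 25.7, 40.6, 25.1 and 33.1 CPM in static replicates 1 to 4 and at 47.7, 42.1, 61.8 and 59.7 CPM under shear stress. It rose by 0.76 ± 0.18 on the log2 scale (adjusted p = 0.0077), and no libraries of the groups overlapped. Smad1, which carries the BMP signal to the nucleus, rose from 16.5 ± 3.03 to 25.6 ± 0.876 CPM (adjusted p = 0.00472). Bmp4 rose from 0.531 ± 0.273 to 1.32 ± 0.538 CPM (adjusted p = 0.042), a call missed without static replicate 1, 2 or 3 or stressed replicate 1, 3 or 4 (adjusted p between 0.0779 and 0.102).

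Falling in the same list were Neo1, which encodes neogenin, a partner of hemojuvelin, and Smad4, the SMAD shared by the BMP and TGF-β pathways. Neo1 stood at 79.2, 118, 119 and 104 CPM in static replicates 1 to 4 and at 35.9, 41.3, 50.03 and 41.1 CPM under shear stress (log2 fold change -1.32 ± 0.15, adjusted p = 0.000193). Smad4 fell from 98.1 ± 10.7 to 58.6 ± 3.93 CPM (adjusted p = 0.000432). Bmp6, the ligand that reports liver iron and that liver endothelial cells mainly supply, was at 2.90 ± 1.84 and 3.25 ± 0.966 CPM (adjusted p = 0.788). Hjv, the hemojuvelin gene, was at 5.30 ± 4.03 and 7.71 ± 3.88 CPM (adjusted p = 0.558). The type I receptor gene Bmpr1a was at 47.2 ± 4.40 and 44.5 ± 4.19 CPM (adjusted p = 0.545), Smad5 at 36 ± 4.12 and 33.3 ± 2.63 CPM (adjusted p = 0.446), and Furin, a protease that can also cut hemojuvelin, at 269 ± 41.6 and 243 ± 29.5 CPM (adjusted p = 0.406).

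Genes that BMP and SMAD proteins switch on, as they do Hamp, went both ways. Of 7 tested, 3 rose (Id3, Smad6 and Atoh8) and 1 fell (Id2), with a median log2 fold change of 0.59. Id3, an inhibitor of helix-loop-helix factors, stood at 39.4, 30.1, 41.6 and 27.7 CPM in static replicates 1 to 4 and at 63.2, 48.1, 74.2 and 59.0 CPM under shear stress (0.82 ± 0.17, adjusted p = 0.00365). Smad6, a feedback inhibitor of the BMP signal, stood at 0.308, 0.698, 0.606 and 0.72 CPM in static and at 1.45, 2.50, 3.75 and 2.94 CPM in stressed libraries (2.17 ± 0.38, adjusted p = 0.00142). Both sets of values were separate without overlap, at a low level for Smad6. Atoh8, a transcription factor, rose from 1.09 ± 0.288 to 3.80 ± 1.58 CPM (adjusted p = 0.0025).

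Id1, the most used readout of BMP signalling in liver, missed the threshold in the main fit, which leaves out the replicate number. It stood at 24.2, 15.9, 27.2 and 14.6 CPM in static replicates 1 to 4 and at 22.5, 30.4, 33.6 and 36.5 CPM under shear stress (0.59 ± 0.23, adjusted p = 0.055). Stressed replicate 1 lay below static replicates 1 and 3, and the other 3 stressed libraries above every static one. With the replicate block Id1 passed (adjusted p = 0.0383), as it did without static replicate 3 (0.0248), without stressed replicate 1 (0.0263), with library totals (0.00906), with upper quartile factors (0.0219) and with DESeq2 (0.0391). Smad7, an inhibitor of both BMP and TGF-β signals, was at 26.3 ± 12 and 21.2 ± 4.15 CPM (adjusted p = 0.386). Id2 fell from 241 ± 61.0 to 41.0 ± 11.7 CPM (-2.55 ± 0.24, adjusted p = 9.92e-05).

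Of 14 tested genes of the IL-6 and STAT3 pathway and other liver regulators of Hamp, 2 rose and 6 fell, with a median log2 fold change of -0.39. Stat3 stood at 291, 311, 415 and 318 CPM in static replicates 1 to 4 and at 115, 121, 139.7 and 121 CPM under shear stress, so each stressed library was below each static library (-1.43 ± 0.13, adjusted p = 7.06e-05). Socs3, the feedback inhibitor that STAT3 induces, stood at 79.9, 64.6, 42.3 and 51.9 CPM in static and at 18.8, 16.1, 13.2 and 8.15 CPM in stressed libraries (-2.09 ± 0.28, adjusted p = 0.000427). The receptor chains fell too, Il6ra from 17.6 ± 2.32 to 8.17 ± 0.428 CPM (adjusted p = 0.000229) and Il6st, which encodes the shared chain gp130, from 126 ± 12.9 to 74.6 ± 8.03 CPM (adjusted p = 0.000647).

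Lifr fell from 57.5 ± 8.23 to 39.7 ± 2.40 CPM (adjusted p = 0.00431, and 0.0685 with library totals). The kinase gene Jak2 fell from 70.8 ± 33.8 to 37.8 ± 4.12 CPM (adjusted p = 0.0273), a call missed without static replicate 3 or stressed replicate 1, 3 or 4 (adjusted p between 0.0517 and 0.0758) and with library totals (0.0902). The rises were those of the cytokine gene Lif, from 1.72 ± 0.476 to 27.8 ± 7.31 CPM (16.0-fold, adjusted p = 2.76e-05), and of the oncostatin M receptor gene Osmr, from 14.0 ± 5.85 to 28.5 ± 7 CPM (adjusted p = 0.0218). The Osmr call was missed without static replicate 2 (adjusted p = 0.0538) or stressed replicate 1 (0.0506), which left 1 rise. Creb3l3, a liver transcription factor that also acts on Hamp, was at 112 ± 51.1 and 94.1 ± 58.5 CPM (adjusted p = 0.721). Il6 itself had too few counts to be tested.

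Acute phase genes were listed as a second readout of the inflammatory arm, and whether STAT3 drives each of them was not examined. Of 15 such genes tested, none rose and 4 fell (Saa4, Fgg, Itih4 and Fgb), with a median log2 fold change of -0.51. These are 26.7% of the list, near the 23.7% of all tested genes that were lower. With the replicate block 13 fell, where 31.0% of all tested genes were lower. Saa4, a serum amyloid A gene, fell from 71.2 ± 19.4 to 34.6 ± 4.35 CPM (-1.04 ± 0.18, adjusted p = 0.00154). Its fall is not read as a measure of STAT3 output. Fgg, a fibrinogen chain gene, fell from 2228 ± 234 to 1410.0 ± 163 CPM (adjusted p = 0.00172), Itih4 from 1749 ± 154 to 1169 ± 125 CPM (adjusted p = 0.00235) and Fgb from 5557 ± 667 to 4102 ± 453 CPM (adjusted p = 0.0174, and 0.155 with library totals). Hp, the haptoglobin gene, was at 3439 ± 1573 and 2298 ± 928 CPM (adjusted p = 0.2, and 3.5e-05 with the block). The hepatocyte markers named above fell with these genes, and their part was not tested.

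**Figure D4:**
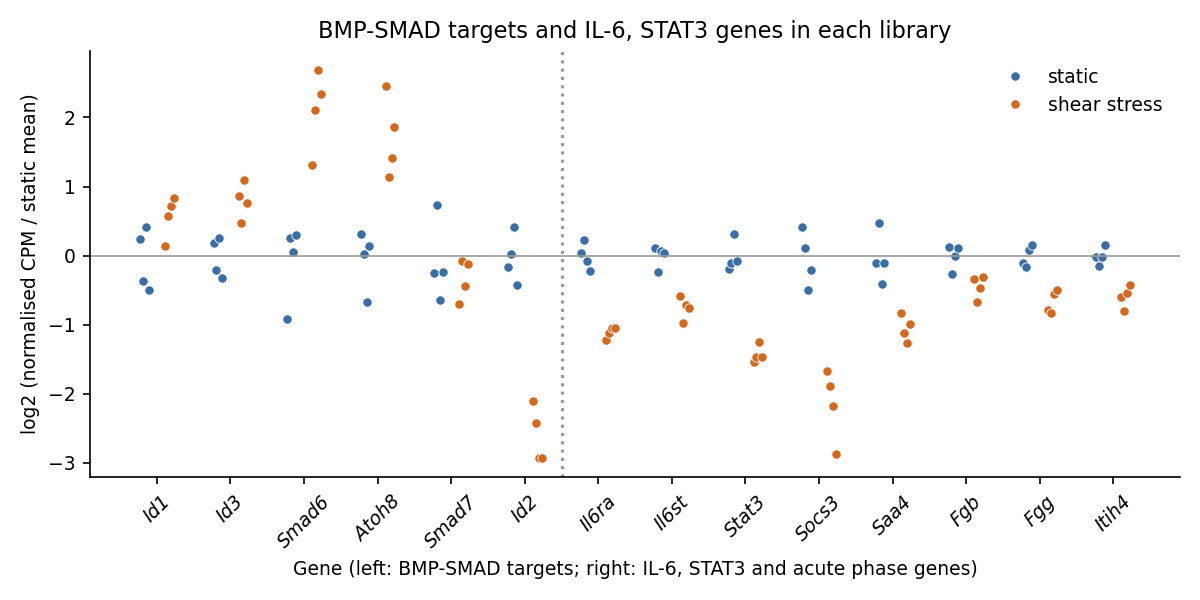
Normalised CPM of each library over the static mean of the gene, on a log2 scale, for BMP-SMAD targets (left of the dotted line) and IL-6, STAT3 and acute phase genes (right), with static libraries in blue and stressed libraries in orange. Id3, Smad6 and Atoh8 are above all static libraries, Id2 is below them, and Il6ra, Il6st, Stat3, Socs3, Saa4, Fgb, Fgg and Itih4 are below them in all 4 stressed libraries.

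In iron transport, 3 of 12 tested genes rose and 5 fell, with a median log2 fold change of -0.29. Slc40a1, which encodes ferroportin, the exporter that hepcidin blocks, stood at 116, 108, 116 and 115 CPM in static replicates 1 to 4 and at 75.6, 56.0, 78.7 and 57.6 CPM under shear stress. It was lower in all 4 stressed libraries than in any static library (-0.76 ± 0.13, adjusted p = 0.00104). The importer genes went both ways. Slc39a14, the ZIP14 transporter that brings iron not bound to transferrin into hepatocytes, stood at 137, 128, 107 and 168 CPM in static and at 318, 205, 218 and 272 CPM in stressed libraries (0.91 ± 0.17, adjusted p = 0.00236). Slc11a2, the DMT1 transporter, fell from 85.6 ± 14.2 to 51.3 ± 9.07 CPM (adjusted p = 0.0035). Slc39a8 fell from 16.8 ± 2.70 to 11.3 ± 2.15 CPM (adjusted p = 0.0193), a call missed without static replicate 1 or stressed replicate 2 or 4 (adjusted p between 0.0546 and 0.0599), with upper quartile factors (0.0568) and with library totals (0.106).

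Of the genes of the STEAP family, Steap2 rose from 40.4 ± 10.2 to 70.5 ± 9.45 CPM (adjusted p = 0.00521) and Steap1 from 3.52 ± 1.13 to 6.66 ± 0.821 CPM (adjusted p = 0.0103). Steap3, which reduces iron in transferrin-carrying endosomes, was at 24.8 ± 7.18 and 32.8 ± 5.62 CPM (adjusted p = 0.14), and passed with the block (0.0127), with library totals (0.0463) and without static replicate 4 (0.0449). With the block 5 genes of this list rose, and 5 rose without static replicate 4. The haem transporter genes fell, Flvcr1 from 15.2 ± 1.68 to 8.53 ± 0.901 CPM (adjusted p = 0.00103) and Slc48a1 from 627 ± 44.3 to 456 ± 36.5 CPM (adjusted p = 0.00352, and 0.0834 with library totals). With library totals 3 genes of the list fell.

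Of 10 tested genes of iron sensing, chaperoning and ferritin turnover, 1 rose and 3 fell, with a median log2 fold change of -0.13. Aco1, which encodes the iron regulatory protein that doubles as cytosolic aconitase, stood at 342, 242, 371 and 304 CPM in static replicates 1 to 4 and at 196, 153, 214 and 192 CPM under shear stress (-0.74 ± 0.15, adjusted p = 0.00324). Its partner gene Ireb2 was at 55.9 ± 6.87 and 61.6 ± 4.76 CPM (adjusted p = 0.318, and 0.0375 with library totals), and Fbxl5, whose product removes the Ireb2 protein when iron is present, at 54.9 ± 5.66 and 52.1 ± 4.75 CPM (adjusted p = 0.587). Ncoa4, the receptor that sends ferritin to lysosomes, fell from 197 ± 18.9 to 133 ± 11.2 CPM (adjusted p = 0.00166). The iron chaperone genes parted, Pcbp2 falling from 596 ± 31.8 to 346 ± 10.6 CPM (adjusted p = 0.000109) and Pcbp1 rising from 272 ± 26.1 to 358 ± 29.9 CPM (adjusted p = 0.00937). With the block, or without stressed replicate 2, 2 genes rose, and 3 rose with library totals.

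Of 15 tested genes of haem metabolism none rose and 2 fell, with a median log2 fold change of -0.15. These were the haem synthesis genes Urod, from 58.4 ± 8.78 to 42.9 ± 4.61 CPM (adjusted p = 0.0164), and Fech, from 144 ± 20.2 to 112 ± 8.11 CPM (adjusted p = 0.0279). Both calls were lost with library totals (adjusted p = 0.132 and 0.316) and upper quartile factors (0.0528 and 0.13), and that of Fech without static replicate 1, 3 or 4 or stressed replicate 1 or 2 (between 0.0532 and 0.077). With the block 1 rose and 6 fell. Hmox1, the inducible haem oxygenase, stood at 298, 228, 142 and 231 CPM in static replicates 1 to 4 and at 261, 66.9, 63.1 and 91.7 CPM under shear stress. Stressed replicate 1 lay among the static libraries and the other 3 below them. The log2 fold change of Hmox1 was -0.90 ± 0.46 (adjusted p = 0.139), and it fell with the block (-1.12, adjusted p = 0.00491) and without stressed replicate 1 (-1.59, adjusted p = 0.00196). Hpx, which encodes the haem scavenger hemopexin, was at 11350.1 ± 3656 and 7859 ± 2510.2 CPM (adjusted p = 0.13, with 2.19e-05 under the block and 0.0381 without stressed replicate 1).

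Of 26 tested genes of mitochondrial iron import and iron-sulfur cluster assembly, 3 rose and 4 fell, with a median log2 fold change of -0.05, and 6 rose and 7 fell with the block. Rising were Fdx2, a ferredoxin of cluster assembly, from 28.9 ± 1.67 to 42.4 ± 2.61 CPM (adjusted p = 0.00118), Isca2, from 12 ± 2.20 to 18.6 ± 2.31 CPM (adjusted p = 0.00835), and Bola3, from 11.3 ± 3.54 to 19.5 ± 1.07 CPM (adjusted p = 0.0126). Falling were the mitochondrial iron importer gene Slc25a28, from 38.6 ± 5.52 to 26.5 ± 1.69 CPM (adjusted p = 0.00453), Glrx5 (0.0162), Isca1 (0.017) and Ciao1 (0.0236). All 4 falls were lost with library totals (adjusted p between 0.0514 and 0.413), where 8 genes rose. With upper quartile factors 1 fell. Glrx5 and Isca1 were lost without stressed replicate 4, Isca1 also without stressed replicate 1, and Ciao1 without static replicate 2 or stressed replicate 1 or 3 (adjusted p between 0.0512 and 0.077). Slc25a37, the other mitochondrial importer gene, was at 195 ± 32.9 and 161 ± 38.4 CPM (adjusted p = 0.224, and 0.0449 without stressed replicate 1).

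**Figure D5:**
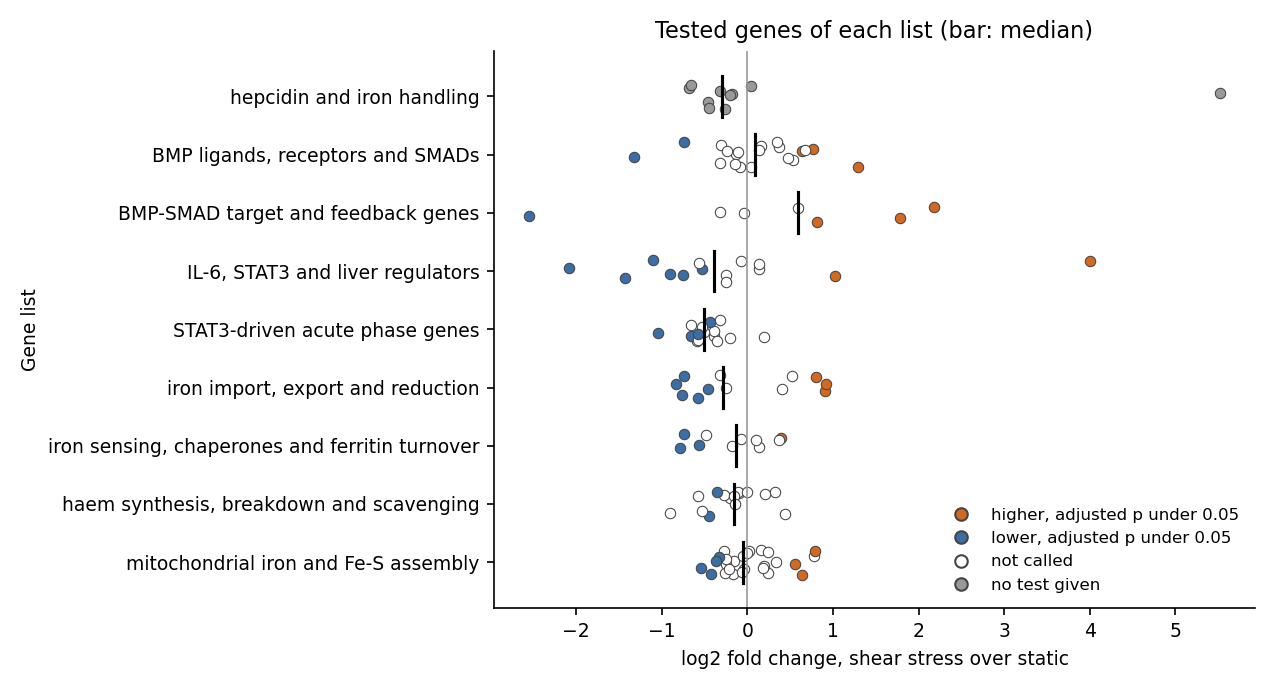
Log2 fold change of shear stress over static for each tested gene of each list, with a bar at the median of the list. Hamp, at 5.52, lies beyond every other gene shown, and the genes of hepcidin and iron handling are in grey because no test is given for them.

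The tested genes whose pattern over the 8 libraries was most like that of Hamp were sought among 3479 others with a mean of at least 50 CPM, by the root mean square difference in log2 CPM after each gene was centred on its own mean. The nearest was Cyp1a1, a cytochrome P450 gene, at 0.82, from 2.63 ± 0.415 to 121 ± 52.8 CPM. Thbs1, which encodes thrombospondin, followed at 1.08, Nt5e, which encodes an ecto-enzyme that makes adenosine, at 1.10, the tissue factor gene F3 at 1.14 and the collagen gene Col27a1 at 1.36. Their fold differences were 46.0, 64.6, 10.9, 17.6 and 8.98, and since they were picked for their likeness no test is given. None of the 5 belongs to the iron lists.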

How the data were processed

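Messenger RNA was measured in 8 hepatocyte libraries, 4 static and 4 under shear stress, grouped by sample title. Libraries were sequenced on DNBSEQ, per the labels. The submitters' processing notes name HISAT, Bowtie2, RSEM and GRCm38 (mm10). Their versions, the annotation and any use of strand are not stated there, so antisense reads cannot be told apart. The authors deposited expected counts per gene (per the file headers "Read Count"), of which between 9.31% and 10.7% per library were not whole (tolerance 1e-09). They also deposited TPM, used for levels between genes, and FPKM values, which were not used.

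Expected counts were rounded, filtered with filterByExpr (11747 of 17276 genes left), scaled with TMM factors and passed to edgeR 4.0.16 in R 4.3.3 for its robust quasi-likelihood test. P-values were adjusted over all tested genes by Benjamini-Hochberg, and called under 0.05. Each standard error is the fitted log2 value divided by the square root of its F statistic. The fit was tested on simulated data. Coordinates and promoters come from RefSeq (GRCm38.p6), in which all 10 symbols matched, 8 of them with a promoter entry. Alternatives were library totals, upper quartile and median ratio factors, DESeq2 1.42.0, no filter, the replicate number as a block, and leaving out each library.

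Both groups share replicate numbers. Over 8446 genes, with group means removed, libraries of the same number correlated at r = 0.679, 0.642, 0.56 and 0.467, so the numbers pair the libraries. No others were above 0, which is not separate support. Removing group means pushes the others below 0 on average when those of the same number are positive. The main fit leaves the numbers out because the labels do not state a pairing, so its standard errors and p-values hold differences between numbers. The common coefficient of variation it estimated was 0.214, against 0.125 with the block. The blocked value stands beside a named gene where it alters the call, and smaller changes of list counts are not given.

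The genes and all lists were chosen with earlier results of these data known. Named were all 10 genes, every called gene of the lists and 28 pathway genes in every case. Intervals of counting error are not given, since reads carried no molecular identifiers. The genes most like Hamp were the 5 nearest outside the set with a mean of at least 50 CPM and no predicted-gene symbol (prior count 2).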

Additional observations from a re-analysis of the deposited data

Results flagged for a closer look

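Of 144 groups of 4 libraries examined gene by gene, 5 held a library far from the others, where chance gives about 1 in 20. Hamp2 in static replicate 3 was at 39.0 CPM, with the other static libraries between 0.66 and 4.37 CPM. Hmox1 in stressed replicate 1 was at 261 CPM, with the others between 63.1 and 91.7 CPM. Furin in static replicate 1 was at 207 CPM, below the others at 283 to 295 CPM. Static replicate 3 was the highest for Urod (71.6 CPM, others 53.6 to 54.8) and for Slc25a28 (46.8 CPM, others 35.3 to 36.7).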

How the results depend on the processing

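Hamp kept its direction in every setting run, with log2 fold changes between 5.31 and 5.77 when single libraries were left out. The number of the 10 genes that passed was 1 higher in every setting and between 2 and 6 lower. It was 2 lower with library totals, with upper quartile factors, without static replicate 4 and without stressed replicate 2 or 4. It was 6 lower with the replicate block, which added Hfe and Trf. The share of all tested genes called in these settings, in the same order, was 48.5%, 48.0%, 46.3%, 41.8%, 39.2% and 61.1%. It was 48.6% in the main fit. Nothing is read from the counts of the 10 genes. Genes called lower numbered 1539 with library totals against 2783, and 73.0% of called genes were then higher, against 51.2% (64.8% with upper quartile factors). Pathway genes called numbered 70 with the replicate block against 42 (24 against 15 higher, 46 against 27 lower), and 26 higher and 16 lower with library totals. Of all tested genes 61.1% were called with the block against 48.6%. By list, the block gave 13 lower acute phase genes, 5 higher transport genes, 2 higher sensing genes, 1 higher and 6 lower haem genes, and 6 higher and 7 lower mitochondrial genes. Library totals gave 3 lower transport genes, 3 higher sensing genes, 1 higher and 0 lower haem genes, and 8 higher and 0 lower mitochondrial genes. Upper quartile factors gave 1 higher and 0 lower haem genes and 1 lower mitochondrial gene. Leaving out single libraries, rises ranged from 1 to 2 for IL-6 and STAT3 genes (1 without static replicate 2 or stressed replicate 1), from 3 to 5 in transport (5 without static replicate 4), from 1 to 2 in sensing (2 without stressed replicate 2) and from 0 to 1 in haem metabolism (1 without stressed replicate 3). Falls ranged from 1 to 3 in haem metabolism (1 without static replicate 3 or stressed replicate 2) and from 2 to 4 among mitochondrial genes (2 without stressed replicate 4). The causes of these changes were not tested. Of 47 named genes called, 0 reversed in any setting. The block, which pairs libraries by number, added the calls of Id1, Hp, Hpx, Hmox1 and Steap3 and changed no other call of a named pathway gene. Genes near 1 CPM, such as Smad6 and Bmp4, rest on few counts.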

Other observations

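The scavenger genes Hpx and Hp varied with the replicate number. Hpx was at 16431, 7807, 11106 and 10057 CPM in static replicates 1 to 4 and at 11384, 5438, 7336 and 7276 CPM under shear stress. Hp was at 5685, 2069, 3250.1 and 2753 CPM in static and at 3627, 1471, 2108 and 1986 CPM in stressed libraries. Both were highest in replicate 1 and lowest in replicate 2 of each group, whereas Hamp2 was highest in replicate 3 and lowest in replicate 4. Creb3l3 was lowest in replicate 2 of each group, at 44.7 and 26.5 CPM. Hjv was lowest there too, at 0.349 and 3.91 CPM.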
